A study of Mus musculus with 192 samples.

Results

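The comparison was between single R1 mouse embryonic stem (ES) cells with the most and the fewest RNA molecules of Lefty1 and Lefty2, a pair of neighbouring genes on mouse chromosome 1. Wells were eligible when they held at least 53000 gene molecules, at most 30000 spike-in molecules and fewer than 25 molecules of Krt8 and Krt18 per 10000 gene molecules, and well E02 was left out. Of the 96 wells, 47 held too few gene molecules, 2 too many spike-in molecules and 7 too much keratin RNA, which with E02 left 39. These were ranked by the sum of Lefty1 and Lefty2 per 10000 gene molecules. The 13 highest were called Lefty-high, the 13 lowest Lefty-low, and the 13 between them the middle wells. Both Lefty genes were then left out of the genes compared.

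All wells came from a single culture of R1, an ES line of the mouse kept on a feeder layer of irradiated embryonic fibroblasts in the medium the labels call ES1 and frozen before use. The labels give neither a treatment nor a genotype beyond the line, so Lefty-high, middle and Lefty-low cells shared line, medium, thawed aliquot and chip. Each of 96 chambers of a microfluidic chip was meant to take 1 cell, whose RNA was reverse transcribed and amplified by 21 cycles of PCR. Sequencing was done on these libraries and again on a form given 9 more cycles, and all 96 barcodes were shared by both forms, so that a column of the deposited molecule counts belonged to both. Images of the chambers were not used here and no doublet caller was run, so empty or doubly filled chambers were not recognised. The culture counts as 1 sample, so differences between the groups were not given a p-value or a standard error: spreads are spreads between wells, and the wells of a group are not replicates of a condition.

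Lefty1 and Lefty2 encode secreted proteins of the TGF-beta superfamily that block signalling by Nodal, a ligand of the same superfamily, through its co-receptor Tdgf1 (Cripto) and activin receptors. Nodal signals pass through Smad2 and Smad3 with Smad4 and, with the DNA-binding factor Foxh1, switch on Nodal targets that include the Lefty genes themselves, so that the pathway holds a negative feedback loop. In the early mouse embryo this loop limits Nodal activity during germ layer formation and left-right patterning, and mouse ES cells are known to vary from cell to cell in Lefty RNA.

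The summed Lefty level in Lefty-high wells was 3.69 at the lowest, 11.2 at the median and 26.1 at the highest, in molecules per 10000 gene molecules, the scale used for all levels below. In the middle wells it was 1.63, 2.75 and 3.67, and in Lefty-low wells 0.309, 1.28 and 1.61. The groups were chosen by these values, which are therefore a description only. No gap separated the groups: the last Lefty-high well had 3.69 against 3.67 in the next well of the ranking, and the first Lefty-low well had 1.61 against 1.63 in the well above it. The highest well, B10, was 84.6 times the lowest, D01. Most of the Lefty RNA sat in few cells: the 13 Lefty-high wells held 75.2% of the Lefty molecules of the 39 ranked wells, and the 7 highest wells alone held 57.6%.

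**Figure D1:**
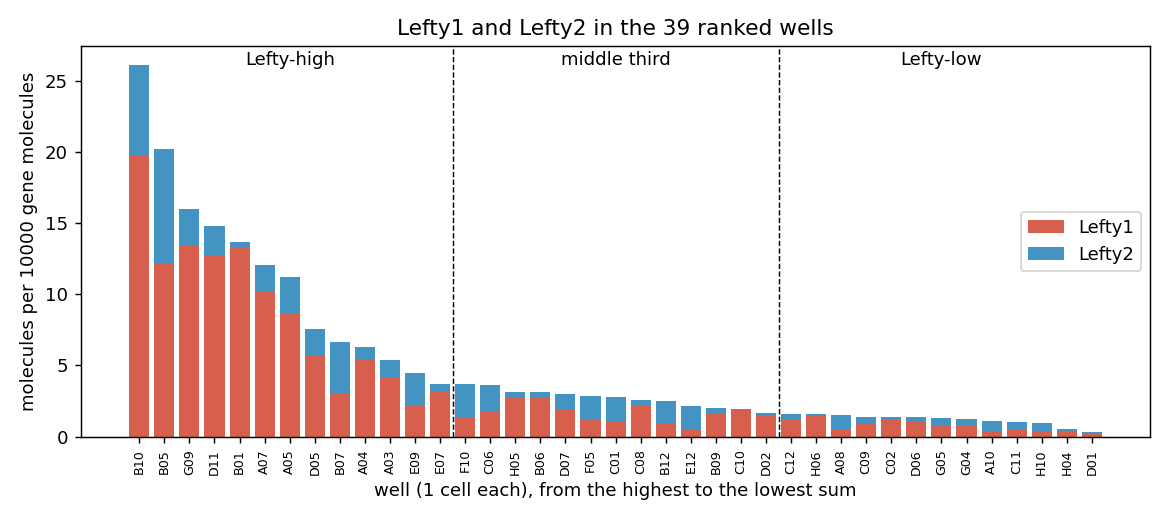
Lefty1 and Lefty2 in each of the 39 ranked wells, as stacked bars in molecules per 10000 gene molecules, from the highest sum on the left to the lowest on the right. Dashed lines mark the borders between Lefty-high, middle and Lefty-low wells, and the sum runs from 26.1 down to 0.309 without a gap at either border.

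Lefty1 (chr1:180935022-180938400, plus strand, GRCm38) gave 76.9% of the Lefty molecules in Lefty-high wells and 66.2% in Lefty-low wells. It had 2.18 at the lowest, 8.67 at the median and 19.7 at the highest in Lefty-high wells, and 0.206, 0.754 and 1.43 in Lefty-low wells, so that its levels did not overlap. Lefty2 (chr1:180893108-180899103, plus strand) had 0.401, 2.10 and 7.99 in Lefty-high wells and 0.0906, 0.466 and 0.926 in Lefty-low wells, and here the groups overlapped. Well B01 had 132 Lefty1 molecules and 4 of Lefty2, whereas B05 had 139 and 91. Over the 39 wells the Spearman correlation of Lefty1 and Lefty2 was 0.44, a description of wells of 1 chip. The transcripts share sequence: 25.6% of the 30-base stretches of the Lefty1 transcript also occurred in Lefty2, and 62.7% of Lefty2 molecules came from uniquely matched reads, against 100% for Lefty1. The part of shared reads in the correlation was not tested. A Lefty-low well was not a well without Lefty RNA: counts were 2 to 18 molecules of Lefty1 and 1 to 7 of Lefty2 per well.

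The groups were close in depth. Gene molecules ran from 74154 to 128290 with a median of 100916 in Lefty-high wells, and from 53975 to 149091 with a median of 98748 in Lefty-low wells, and spike-in molecules had medians of 7992 and 7917. The share of mitochondrially encoded RNA had a median of 8.62% in Lefty-high wells and 10.3% in Lefty-low wells. Its part in the results was not tested beyond a scaling without these genes, given with the other alternatives below. Rows A and B of the plate held 8 of 13 Lefty-high, 3 of 13 middle and 2 of 13 Lefty-low wells, and a part of plate position in the results was not tested beyond the values without those rows given below. As a check of the label, all 14 core pluripotency markers were measured in the compared wells. Their summed level ran from 36.3 to 131 with a median of 108 in Lefty-high wells, and from 40.3 to 204 with a median of 115 in Lefty-low wells. That sum was mostly Dppa5a, with means of 70.6 in Lefty-high and 86.8 in Lefty-low wells against 89.2 and 111 for the sum. It therefore says little about the other markers.

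Marker lists set single wells apart. Well A08, Lefty-low, held 17, 9, 10 and 21 molecules of Zscan4b, Zscan4d, Zscan4e and Zscan4f, which mark the rare 2-cell-like state of mouse ES cultures, a summed level of 10.6 for the list against 0.219 in the next highest ranked well. The 18 feeder fibroblast genes summed to 197 in D02, a middle well, and to 36.95 in A03, a Lefty-high well, against medians of 9.11 in Lefty-high, 9.24 in middle and 8.84 in Lefty-low wells. Fibroblast collagens Col1a1 and Col3a1 were at 0 in both wells, and the sums came mainly from Lgals1 and S100a6. Of other members, D02 also held 116 molecules of Vim and 93 of Fn1, against 11 and 26 in A03. Wells A03, A08 and D02 were also the 3 ranked wells with under 80000 gene molecules. Changes in the genes past the fold without these 3 wells are given below.

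With a fold of 2 as the limit, few genes differed between the groups. A gene was measured if its mean level over both groups was at least 0.5, which held for 2826 genes. It was called past the fold if its mean level, with 0.1 added, was at least 2 times as high in one group, and again so without the highest well of that group. Of the 2826 genes, 8 were higher in Lefty-high wells (0.283%) and 9 were lower (0.318%). These shares are the background for the counts of list members below, where 0 or 1 gene past the fold says little about a list. Not 1 of the 2826 had levels free of overlap between the groups (0%). Over all genes measured the median log2 ratio of Lefty-high over Lefty-low was 0.04, and the middle 90% lay between -0.51 and 0.65.

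**Figure D2:**
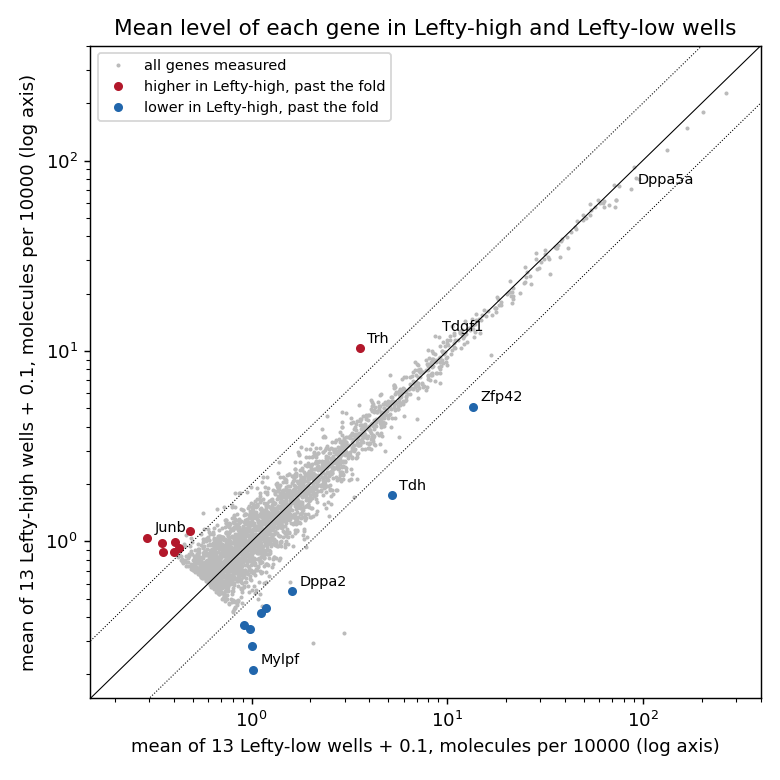
Mean level of each of the 2826 genes in the 13 Lefty-high wells (vertical log axis) against the 13 Lefty-low wells (horizontal log axis), each plus 0.1, in molecules per 10000 gene molecules. Dotted lines mark a fold of 2, and the 8 higher and 9 lower genes past it with and without their highest well are coloured; Trh lies above the upper line, and Zfp42 and Tdh lie below the lower one.

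The genes higher in Lefty-high wells covered several functions. Trh encodes the precursor of thyrotropin-releasing hormone. Its level was 0.588 at the lowest, 3.84 at the median and 36.9 at the highest in Lefty-high wells, and 0.283, 1.36 and 14.5 in Lefty-low wells. The groups overlapped widely, and 10 of 13 Lefty-high wells lay above the Lefty-low median. Trh means were 10.2 ± 13.6 in Lefty-high and 3.48 ± 4.3 in Lefty-low wells (SD, n = 13 wells each), a log2 ratio of 1.53, or 1.18 without the highest well. The middle wells had a Trh mean of 2.95, below that of the Lefty-low wells. Wells A07, B05 and D11 had Trh levels of 36.9, 36.8 and 25.8, and the other Lefty-high wells at most 10.3, while the rule leaves out only 1 well. Without plate rows A and B, which leaves 8 wells a group, the Trh ratio was 0.45. Junb, a subunit of the AP-1 transcription factor and an immediate early gene, had the largest ratio. Junb levels ran from 0 to 5.26 with a median of 0.480 in Lefty-high wells, against 0 to 0.815 with a median of 0.0824 in Lefty-low wells. In molecules these Junb levels were 114 in all Lefty-high wells and 27 in all Lefty-low wells, a ratio of shares of 4.06 with an exact 95% interval of 2.65 to 6.43, which covers counting error only, as do all intervals here. The log2 ratio of Junb was 1.84. Without its highest well, A03, which had the 5.26, the Junb ratio was 1.23 and still past the fold. With A03, A08 and D02 left out and the other wells ranked anew, it was 1.16, and Junb did not pass once the next highest well was also left out.

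The remaining 6 higher genes had low levels, with means of 0.780 to 1.04 in Lefty-high and 0.246 to 0.383 in Lefty-low wells. Cenpq, a kinetochore protein, and Tacc3, which stabilises spindle microtubules, act in mitosis, as does Anapc16, a subunit of the anaphase-promoting complex. Cenpq had 138 molecules in Lefty-high and 51 in Lefty-low wells, Tacc3 had 104 and 41, and Anapc16 had 107 and 32. Smchd1, a chromatin protein needed for X inactivation, had 121 and 33, a ratio of shares of 3.53 (95% interval 2.38 to 5.35). Chmp1a, a subunit of the membrane-remodelling ESCRT-III complex, had 108 and 42, and it lay above the Lefty-low median in 12 of 13 Lefty-high wells. The eighth, listed as D11Wsu99e, had 120 and 42. Without A03, A08 and D02, 5 genes were higher in all, each of them among these 8; Junb, Cenpq and Chmp1a were lost with log2 ratios of 1.16, 1.08 and 0.96. Without plate rows A and B, Chmp1a was the only one of the 8 past the fold (log2 1.16), and Junb had 0.75, Cenpq 0.74 and D11Wsu99e 0.42.

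**Figure D3:**
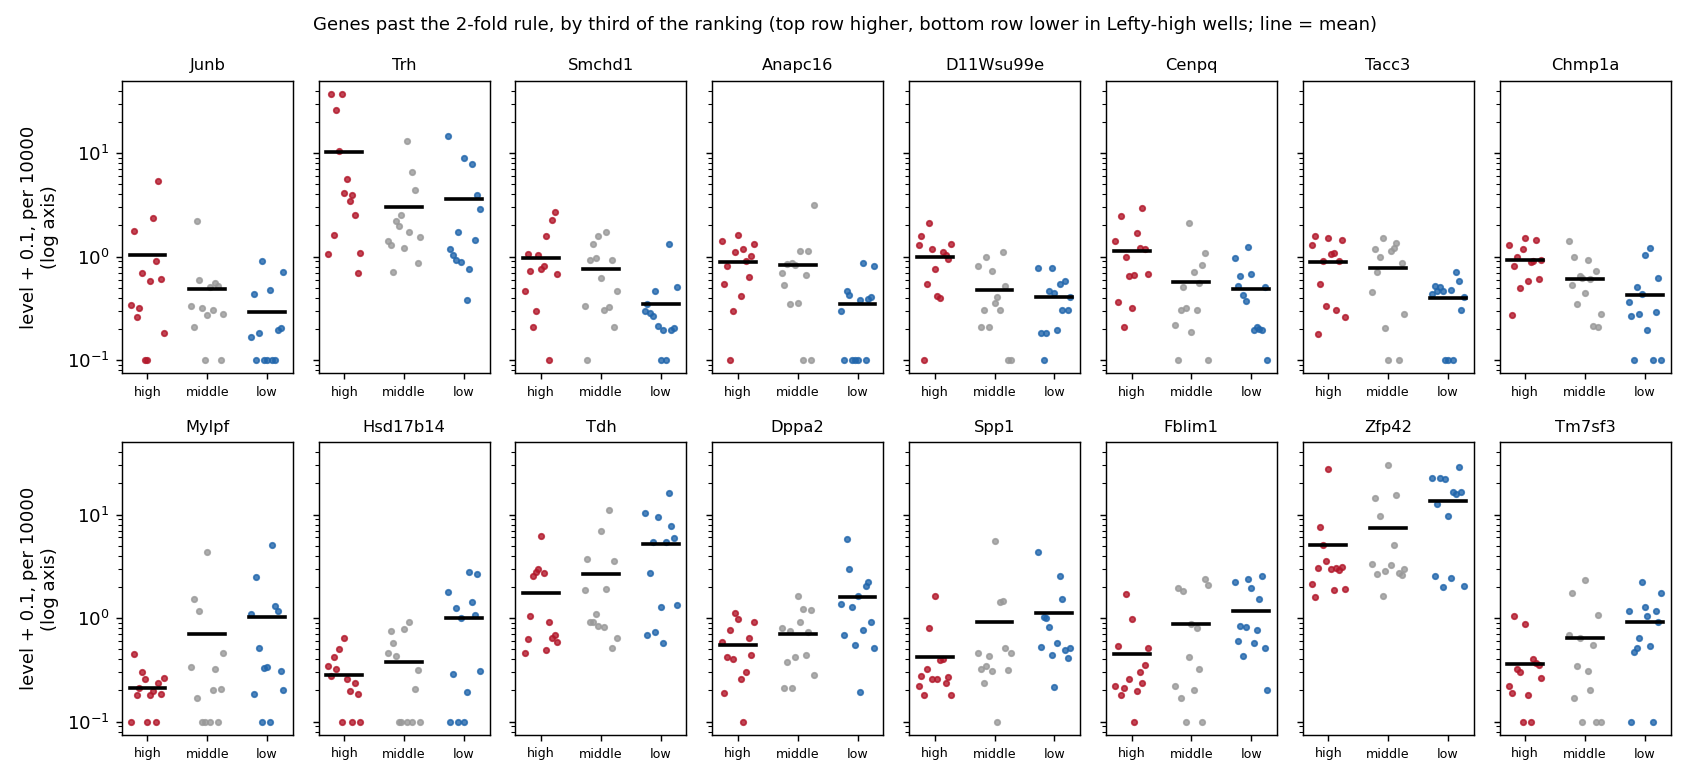
Level plus 0.1 (log axis, molecules per 10000 gene molecules) of the 16 named genes past the fold, 1 point per well, with Lefty-high wells at the left of each panel, middle wells in the centre and Lefty-low wells at the right; the black line is the mean. Genes of the top row are higher and those of the bottom row lower in Lefty-high wells, and in every panel points of the groups overlap.

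Genes lower in Lefty-high wells included markers of the undifferentiated ES cell. Zfp42 (Rex1), a zinc finger protein long used to mark undifferentiated ES cells, had 1.49 at the lowest, 2.93 at the median and 27.3 at the highest in Lefty-high wells. In Lefty-low wells it had 1.90, 15.6 and 28.7. In 12 of 13 Lefty-high wells Zfp42 lay at or below 7.51 and only A05 stood above, whereas 9 of 13 Lefty-low wells lay at or above 9.67 and the other 4 at or below 2.44. Means of Zfp42 were 5.00 ± 6.89 in Lefty-high and 13.4 ± 9.20 in Lefty-low wells (SD, n = 13 wells each), with 7.36 in the middle wells, and the log2 ratio was -1.41. Of Zfp42 molecules, 59.3% came from uniquely matched reads. Over all 39 wells its Spearman correlation with the Lefty sum was -0.29, and the well with the least Lefty RNA, D01, also had little Zfp42 (1.95).

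Tdh, the mitochondrial threonine dehydrogenase on whose activity mouse ES cells depend, followed Zfp42 closely. Tdh levels were 0.361, 0.808 and 6.03 (lowest, median and highest) in Lefty-high wells and 0.471, 5.28 and 16.1 in Lefty-low wells. Again A05 was the highest Lefty-high well, and 12 of 13 lay below the Lefty-low median. The log2 ratio of Tdh was -1.58, with 224 molecules in Lefty-high and 696 in Lefty-low wells. Zfp42 and Tdh had a Spearman correlation of 0.81 over the 39 wells, 0.85 within the Lefty-high and 0.77 within the Lefty-low wells. Without plate rows A and B the log2 ratios were -1.34 for Zfp42 and -1.61 for Tdh, both past the fold. Other choices ended these calls: ranked by Lefty2 alone the ratios were 0.10 for Zfp42, with the sign turned, and -0.31 for Tdh. With narrower groups, the 9 highest and 9 lowest wells of the ranking, they were -1.07 for Zfp42 and -1.29 for Tdh, and neither passed without its highest well. With the 19 highest and 19 lowest wells Zfp42 had -1.04 and did not pass, while Tdh had -1.43 and did. Dppa2, a chromatin factor of pluripotent cells, was below the Lefty-low median in 13 of 13 Lefty-high wells. Its levels were 0, 0.336 and 1.01 in Lefty-high and 0.0943, 1.18 and 5.74 in Lefty-low wells, a log2 ratio of -1.56. The Dppa2 value of 5.74 came from the Zscan4-positive well A08, and without A03, A08 and D02 the ratio was -1.23, still past the fold. Dppa2 had a correlation of 0.56 with Zfp42 over the 39 wells, and Junb one of -0.53; these pairs were picked after their values were seen.

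**Figure D4:**
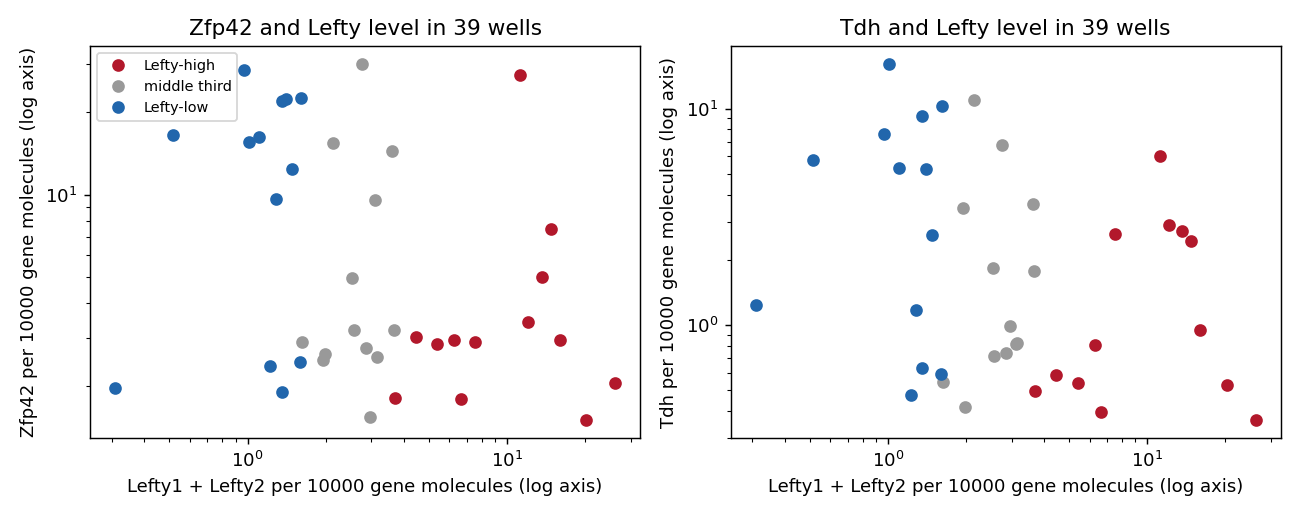
Zfp42 (left) and Tdh (right) against the Lefty1 and Lefty2 sum in the 39 ranked wells, both on log axes in molecules per 10000 gene molecules, 1 point per well. Most Lefty-low wells sit high on the vertical axis and most Lefty-high wells low, with A05 as the exception at a Zfp42 level of 27.3, and D01 low in both Zfp42 and Lefty.

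The promoters of Trh, Zfp42 and Spp1 are shown as examples from the 11 named called genes with a RefSeq promoter entry. They were not picked by a rule, so matches among these 3 say nothing about the share among the 11. Sequences are the 250 bases before the RefSeq start on GRCm38.p6, 5′ to 3′ on the strand of the gene, for Trh at chr6:92244651-92244900 (minus), Zfp42 at chr8:43307010-43307259 (minus) and Spp1 at chr5:104434861-104435110 (plus). Capitals mark a match, on either strand, to the FOXH1 motif AATCCACA, the SMAD motif CAGACA or the octamer ATGCAAAT bound by Pou5f1 and its relatives.
Trh: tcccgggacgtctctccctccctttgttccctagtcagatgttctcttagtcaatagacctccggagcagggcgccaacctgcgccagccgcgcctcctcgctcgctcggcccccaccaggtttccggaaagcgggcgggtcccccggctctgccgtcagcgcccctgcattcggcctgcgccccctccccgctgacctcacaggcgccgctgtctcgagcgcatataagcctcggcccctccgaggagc
Zfp42: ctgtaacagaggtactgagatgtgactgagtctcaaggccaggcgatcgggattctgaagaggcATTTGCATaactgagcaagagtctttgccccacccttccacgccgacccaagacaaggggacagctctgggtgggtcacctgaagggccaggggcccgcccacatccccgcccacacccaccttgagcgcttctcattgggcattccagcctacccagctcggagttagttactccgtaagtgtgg
Spp1: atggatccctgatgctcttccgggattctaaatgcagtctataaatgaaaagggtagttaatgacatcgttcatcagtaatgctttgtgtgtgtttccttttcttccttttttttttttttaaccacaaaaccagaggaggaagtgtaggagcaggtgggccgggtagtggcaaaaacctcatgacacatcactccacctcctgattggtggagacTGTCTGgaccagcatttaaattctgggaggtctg
The Zfp42 stretch held the octamer in reverse from position -186, and the Spp1 stretch held the SMAD motif in reverse from position -34, counted back from the start. Among 13 promoter entries found for 11 of the 16 called genes, the SMAD motif was in 3 (Anapc16, Fblim1 and Spp1), the octamer in 2 (Spp1 and Zfp42) and the FOXH1 motif in 0. Spp1 had 2 entries, and its octamer match was not in the stretch shown, which was the first entry with a match. Of all 32851 promoter entries the shares were 17.1%, 1.60% and 0.718%. These matches describe letters only.

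Spp1 (osteopontin, a secreted phosphoprotein of the extracellular matrix) had 0.0792, 0.168 and 1.54 in Lefty-high wells against 0.117, 0.471 and 4.29 in Lefty-low wells, a log2 ratio of -1.41. In 11 of 13 Lefty-high wells it lay below the Lefty-low median. Without A03, A08 and D02 its ratio was -1.37 and it no longer passed the fold. Fblim1, an adaptor that links filamin to cell adhesions, had 46 molecules in Lefty-high and 145 in Lefty-low wells. Hsd17b14, a hydroxysteroid dehydrogenase, had 24 and 123 and was below the Lefty-low median in 13 of 13 Lefty-high wells. The groups overlapped, since Hsd17b14 levels in Lefty-low wells ran from 0 to 2.65. The Lefty-high well was the higher in 31.7% of pairs for Hsd17b14, and its Spearman correlation with the Lefty sum was -0.21. Mylpf, a regulatory light chain of fast skeletal myosin, had 16 and 109, the largest ratio of all (log2 -2.26), but its Lefty-low levels ran from 0 to 4.98 and without rows A and B the Mylpf ratio was -0.34. Without A03, A08 and D02, 9 genes were again lower, 7 of them among the 9 here; Mylpf (-2.09) and Spp1 were those lost. Without rows A and B, only Tdh, Zfp42 and Fblim1 of the 9 passed. Tm7sf3, a multi-pass membrane protein, had 36 and 107. The ninth gene drew under 50% of its molecules from uniquely matched reads and is not named.

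No other measured gene of the Nodal and Activin pathway passed the fold. Of 36 genes listed apart from the Leftys, 31 had a molecule in some well and 7 were measured. Past the fold were 0 in either direction, against the background of 0.283% higher and 0.318% lower. The median log2 ratio of the 7 was -0.13, against 0.04 over all genes. The list summed to 11.6, 19.9 and 28.2 (lowest, median and highest) in Lefty-high wells and 11.8, 16.5 and 27.8 in Lefty-low wells, an almost complete overlap.

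Ligands and receptors came first in that list. Tdgf1, the Nodal co-receptor, was found in every compared well, at levels of 5.18, 11.4 and 17.7 in Lefty-high wells and 3.81, 7.80 and 20.1 in Lefty-low wells. Its level was higher in the Lefty-high well in 75.7% of pairs of wells, above the 95th percentile of all genes (71.6%), and the Tdgf1 log2 ratio was 0.46. The ligand Gdf3 had means of 1.30 in Lefty-high and 1.69 in Lefty-low wells (log2 -0.35). Nodal itself lay under the minimum level, with means of 0.275 and 0.270 and molecules in 11 and 10 wells. The type II receptor gene Acvr2b was seen in 8 Lefty-high and 4 Lefty-low wells at means of 0.162 and 0.0973. The type I receptor genes Acvr1b and Acvr1c and the ligand gene Gdf1 had 0 molecules in the compared wells.

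Inhibitors other than the Leftys gave no common direction. Ski and Skil, nuclear repressors of Smads, had log2 ratios of 0.36 and -0.33, and Tgif1, a homeodomain repressor, 0.04. Fstl1, a follistatin-like protein, had -0.13. Pmepa1, a membrane protein that is a target and inhibitor of TGF-beta signals, lay under the minimum level with means of 0.506 in Lefty-high and 0.202 in Lefty-low wells, and was found in 12 and 8 wells; the Pmepa1 log2 ratio was 1.01, or 0.71 without its highest well. Smad7, an inhibitory Smad, had 0.473 and 0.329. Fst, an activin-binding protein, reached 9.16 in the Lefty-low well D01, the well with the least Lefty, and was at most 0.475 in Lefty-high wells. Cer1 and Fstl3 had 0 molecules. Among transducers and targets Smad4 was the only one measured, with means of 0.433 in Lefty-high and 0.616 in Lefty-low wells (log2 -0.43). Under the minimum, Smad2 had 0.211 and 0.244, and Foxh1 had 0.407 and 0.226. These levels rest on few molecules: Foxh1 had 57 in all Lefty-high and 32 in all Lefty-low wells, a ratio of shares of 1.71 with an exact 95% interval of 1.09 to 2.73, and Smad2 had 27 and 29, a ratio of 0.896 (0.510 to 1.57). Of the 24 pathway genes with a molecule but under the minimum, 17 had the higher mean in Lefty-high wells, against 56.2% of all such genes, and those named here were picked after their values were seen.

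Core pluripotency genes had slightly lower means in Lefty-high wells. All 14 were measured and 13 had the lower mean there, with a median log2 ratio of -0.33 against 0.04 over all genes; 55.3% of all genes had the higher mean in Lefty-high wells. Dppa2 was the only one past the fold. Sox2, a partner of Pou5f1, had means of 0.634 in Lefty-high and 1.17 in Lefty-low wells, and Sall4 had 0.761 and 1.13. Pou5f1 (2.01 and 2.22), Nanog (0.759 and 0.853) and Utf1 (2.68 and 3.17) were close. Dppa5a, an RNA-binding protein, had 17.8, 91.8 and 109 in Lefty-high wells and 19.1, 92.3 and 181 in Lefty-low wells, and L1td1, another RNA-binding protein, had a log2 ratio of -0.24. The exception was Lin28a, a repressor of let-7 microRNAs, with 0.955 and 0.685. Both Dppa4 and Pou5f1 drew under 50% of molecules from unique reads, so their values are uncertain.

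Naive-state genes summed to 2.46, 5.05 and 42.7 in Lefty-high wells and 3.62, 22.6 and 37.3 in Lefty-low wells, a sum that is mostly Zfp42. Of 14 listed, 4 were measured and each had the lower mean in Lefty-high wells, with a median of -0.61. Klf4, a reprogramming factor whose reads are shared with other loci (38.7% unique), had means of 0.656 in Lefty-high and 1.19 in Lefty-low wells. Klf2 had 0.638 and 0.710, and Fbxo15, an F-box protein, had 0.611 and 0.868. Under the minimum level, the naive-state regulators Tfcp2l1 (0.134 and 0.665) and Esrrb (0.224 and 0.596) also had the lower mean. Of the 10 naive genes under the minimum, 9 had the lower mean and 1 the higher, against 56.2% of all genes under the minimum with the higher mean. Primed-state genes had 3 measured members, Dnmt3a (log2 0.14), Dnmt3b (0.49) and Sox11 (0.21), with a median of 0.21 and 0 past the fold. Their list summed to a median of 5.91 in Lefty-high and 3.52 in Lefty-low wells, within ranges of 2.52 to 12.5 and 2.31 to 12.8. Otx2, an early factor of the primed state, lay under the minimum but was found in 6 Lefty-high and 2 Lefty-low wells, with means of 0.249 and 0.0154, and Fgf15 in 7 and 1. Of the 9 primed genes under the minimum, 7 had the higher mean in Lefty-high wells and 2 the lower. Among enzymes of DNA methylation, Tet1, which oxidises methylcytosine, had levels of 0.640, 1.44 and 2.18 in Lefty-high wells and 0.754, 2.52 and 4.23 in Lefty-low wells (log2 -0.70). Dnmt3l, a cofactor of the de novo methyltransferases, had a ratio of -1.30 but did not pass without its highest well. None of the 6 measured enzymes of this list passed the fold.

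**Figure D5:**
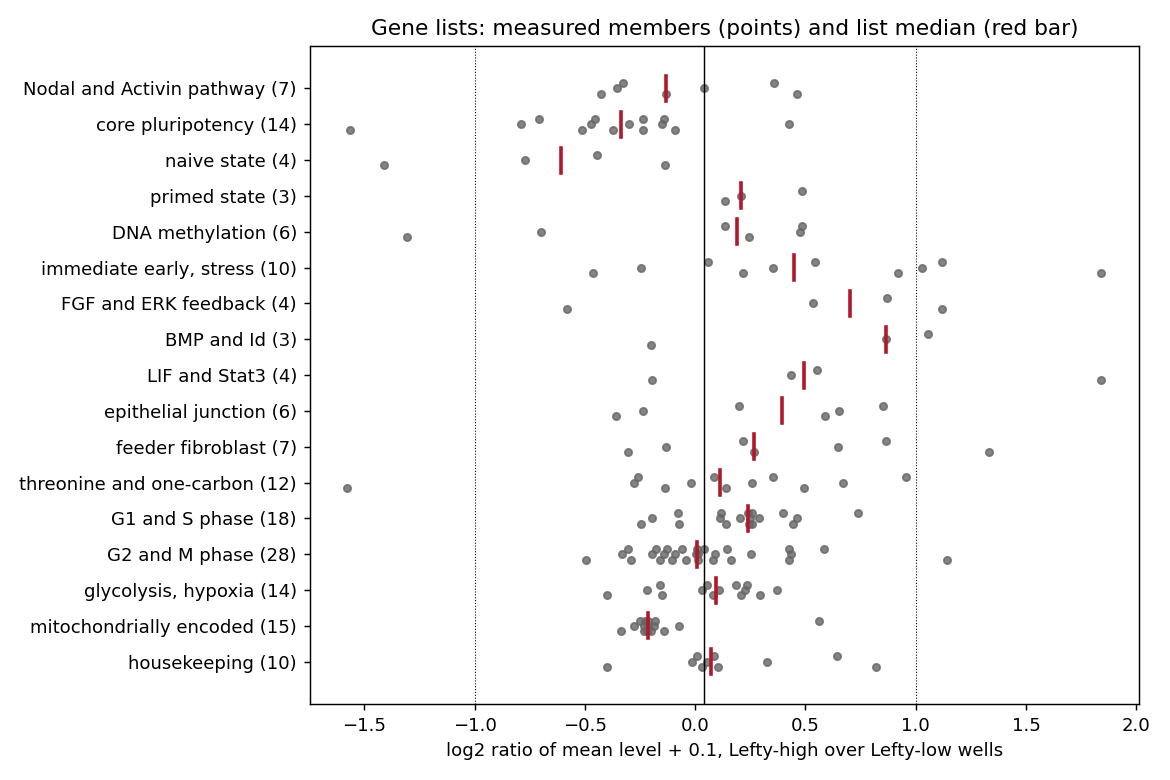
Log2 ratio of the mean level plus 0.1, Lefty-high over Lefty-low wells, for the measured members (points) of 17 gene lists, with the number measured in brackets and the list median as a red bar. The solid line is the median of all 2826 genes (0.04) and dotted lines mark a fold of 2. The bars of core pluripotency (-0.33) and naive state (-0.61) are among those left of it. Among those right of it are immediate early genes (0.45), LIF and Stat3 (0.49), FGF and ERK feedback (0.70) and BMP and Id (0.86).

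Of 10 measured immediate early and stress genes, 8 had the higher mean in Lefty-high wells, with a median of 0.45. Junb alone passed the fold, against 0.283% of all genes higher. Their list sum, of 20 genes, did not differ in this way: its median was 48.9 in Lefty-high and 48.8 in Lefty-low wells, and its mean 49.1 and 51.2. Most of that sum was the heat shock gene Hsp90aa1, with means of 34.7 in Lefty-high and 41.1 in Lefty-low wells. The sum therefore says little about the other genes of the list. Fos, partner of Jun proteins in AP-1, had 0.160, 1.59 and 5.53 in Lefty-high wells and 0.291, 0.618 and 2.55 in Lefty-low wells (log2 0.92). Egr1, a zinc finger factor induced by ERK signalling, had 0.0801, 1.07 and 8.78 against 0, 0.452 and 2.45. The Egr1 log2 ratio was 1.12 but 0.54 without its highest well, B05. Heat shock genes did not share the direction: Hsp90aa1 had log2 -0.25 and Hspb1 -0.46, both with most reads shared with other loci. Zfp36, an early gene whose protein destabilises RNA, lay under the minimum level with means of 0.746 and 0.246.

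Signalling lists other than Nodal had few measured members. In the BMP and Id list, where Id proteins are inhibitors of basic helix-loop-helix factors and BMP targets, Id1 had means of 0.845 in Lefty-high and 0.355 in Lefty-low wells, Id3 had 2.07 and 1.09, and Id2 had 0.684 and 0.801. None passed the fold, and the Spearman correlations with the Lefty sum were -0.04, 0.17 and -0.14. The FGF and ERK list had 4 measured and 0 past the fold, with a median log2 ratio of 0.70. Its members were Egr1, given above, at 1.69 and 0.722, and Fgfr1, a receptor, at 0.698 and 0.338. Dusp6, an ERK phosphatase, had 0.831 and 0.542, and Etv5, an ERK-induced factor with under 50% unique reads, 1.47 and 2.25. In the LIF and Stat3 list Junb was the 1 of 4 past the fold, against 0.283% of all genes higher. It is the same gene as in the immediate early list. The kinase genes Pim2 and Pim3 had log2 ratios of 0.55 and -0.19. The only measured Wnt gene, Ccnd1 (cyclin D1), had 2.16 and 1.78.

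Over all 39 wells, the genes with the highest Spearman correlations with the Lefty sum were mostly ones not past the fold. The correlations were 0.55 for Ywhab, a 14-3-3 adaptor, 0.51 for Chmp1a, which is also past the fold, 0.50 for Col18a1, a basement membrane collagen, 0.48 for Ctsl, a lysosomal protease, and 0.48 for Ppm1g, a phosphatase. Ctsl had 2.70, 4.04 and 6.98 in Lefty-high wells and 0.203, 1.52 and 6.28 in Lefty-low wells, and the Lefty-high well was the higher in 84.02% of pairs. At the other end were Tmsb4x, which binds actin monomers (-0.56), Rbm25, a splicing factor (-0.50), and Actb, cytoplasmic actin (-0.49), next to Spp1 (-0.48), which is past the fold. Tmsb4x had 3.42, 6.07 and 47.2 in Lefty-high wells and 6.92, 17.1 and 30.3 in Lefty-low wells. The 47.2 was A03, the Lefty-high well with high feeder genes, and in 12.4% of pairs the Lefty-high well was the higher for Tmsb4x. In 12 of 13 Lefty-high wells Tmsb4x lay below the Lefty-low median. The rule leaves out only the highest well of the group with the higher mean, so A03 stayed in the Tmsb4x log2 ratio of -0.81. That ratio therefore depends on A03, and a value without A03 is not given here. Actb had 17.8, 25.2 and 35.5 in Lefty-high wells and 26.02, 30.1 and 51.5 in Lefty-low wells. In all, 28 genes reached a correlation of 0.4 and 17 one of -0.4. These are values over wells that share a chip, with no test.

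Adhesion genes of epithelia had 6 measured members, 4 of them with higher means in Lefty-high wells. Past the fold were 0, against 0.283% higher and 0.318% lower over all genes. Cdh1 (E-cadherin) had 0.634, 1.44 and 3.51 in Lefty-high wells and 0.185, 1.05 and 1.85 in Lefty-low wells, a log2 ratio of 0.85. The tight junction genes Cldn6 and Cldn7 had 0.65 and 0.59, Epcam 0.20, and Spint2, a protease inhibitor, -0.36. Of 12 measured genes of threonine and one-carbon metabolism Tdh alone passed the fold, against 0.318% of all genes lower, and the median was 0.11. Gcat, the enzyme that acts after Tdh, had means of 0.629 in Lefty-high and 0.703 in Lefty-low wells, while Mthfd2, a mitochondrial folate enzyme, had 1.83 and 0.897. Psat1, of serine synthesis, had a log2 ratio of -0.02.

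Among the cell cycle lists, 14 of 18 measured G1 and S genes had the higher mean in Lefty-high wells, against 55.3% of all genes, with a median of 0.24 against 0.04 and 0 past the fold; Pcna, the replication clamp, had 4.66 in Lefty-high and 4.29 in Lefty-low wells, and Mcm7, of the replicative helicase, 3.41 and 2.86. Among G2 and M genes, nearer the background, 15 of 28 did, with a median of 0.01. Tacc3 was the 1 past the fold, against 0.283% of all genes higher. Glycolysis genes had a median of 0.09 over 14 (Gapdh 47.9 and 46.2, Pkm 14.3 and 12.3), and p53 and apoptosis genes 0.04 over 7 (Bax 2.42 and 2.35, Mcl1 1.97 and 2.26). Housekeeping genes had a median of 0.07 over 10, with log2 ratios from -0.40 (Actb) to 0.82, and Hsp90ab1 had 54.8 and 54.5. Of the 15 mitochondrially encoded genes 14 had lower means in Lefty-high wells, with a median of -0.21; mt-Rnr2 had 180 and 204, and mt-Co1, whose reads are largely shared, 148 and 168.

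Markers of other cell types had overlapping levels in the groups, as did all 2826 genes measured, so overlap does not set these markers apart. Feeder fibroblast genes had 5 of 7 measured members with higher means in Lefty-high wells, but the list sum had medians of 9.11 and 8.84, and Lgals1 and Fn1 had log2 ratios of 0.22 and -0.30. Ctgf, a matricellular protein, had 1.32 and 0.462, with 6.67 in B05, and did not pass without that well. Trophectoderm keratins had Krt8 at 1.68 and 1.42 and Krt18 at 1.49 and 1.54. Primitive endoderm genes Lamc1 and Sparc had log2 ratios of 0.34 and -0.66. Nes was the only neural gene measured (means of 0.7002 and 0.358). Neural genes summed to 0.238, 0.857 and 2.90 in Lefty-high wells and 0, 0.387 and 1.89 in Lefty-low wells. Of 12 mesendoderm genes 0 were measured. Mesendoderm genes summed to 0, 0.539 and 4.40 in Lefty-high wells and 0, 0.309 and 1.60 in Lefty-low wells, with means of 1.09 and 0.435. Among 8 measured genes listed as variable in ES cells Trh alone passed the fold, against 0.283% of all genes higher. Malat1 and Actg1 had log2 ratios of -0.19 and -0.12, and Mt1 had a median of 4.09 in Lefty-high and 2.33 in Lefty-low wells but 38.5 in D01.

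The 46 wells with too little RNA for the ranking that met the other limits gave a comparison in cells the ranking had not used. Ranked in the same way and split into groups of 15, they had Lefty sums of 3.65 to 6.75 in the top group and 1.23 to 2.35 in the bottom group, from 4 to 16 and 2 to 12 Lefty molecules a well. Of the 8 genes higher in Lefty-high wells 5 had the higher mean in the top group of the low-RNA wells, where 56.9% of all genes did, and of the 9 lower genes 5 had the lower mean. Fblim1 had 0.124 in the top and 0.474 in the bottom group, a log2 ratio of -1.36. Tdh (-0.49), Zfp42 (-0.16), Trh (0.39) and Junb (0.13) had smaller ratios than in the ranked wells, and Tm7sf3 (1.44) had the opposite sign. In these wells, with a median of 22591.5 gene molecules, Lefty1 and Lefty2 had a Spearman correlation of -0.03. The part of counting error in this second ranking was not tested.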

How the data were processed

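The values were molecule counts per gene and cell barcode, deposited by the authors in 1 table of 96 wells; per the file headers, a read that matched in several places was given to 1 of them and counted. The submitters' processing notes name Bowtie and mm10 (GRCm38), and the version is not given in the sources used here. From the counts, levels per 10000 gene molecules were computed without the 96 spike-ins and 1554 repeat types. Group means plus 0.1 were compared as log2 ratios. Shares of unique reads came from the deposited totals. Well depth is given with the results, and exact 95% Poisson or binomial intervals cover counting error only. Molecule counting was not checked against reads. The members and the 27 gene lists were chosen with earlier results of these data known.

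Genes were named by a rule: the 12 highest and 12 lowest ratios past the fold with at least 50% unique molecules, all measured Nodal and Activin genes, from each other list the 2 highest means and up to 3 genes past the fold, and the 5 highest and 3 lowest Spearman correlations with the Lefty sum. It gave 69 genes; 9 of them, with under 50% unique molecules, are uncertain. Genes under the minimum level, and other list members given beside these, were named after their values were seen. Alternatives changed scaling, pseudocount, filters, fold, group size, ranking and wells. Gene coordinates are those of GENCODE M21. The analysis ran in Python 3.11.15 with pandas 2.3.3, numpy 2.4.6, scipy 1.17.1 and matplotlib 3.10.9.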

Additional observations from a re-analysis of the deposited data

Results flagged for a closer look

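Lefty RNA also appeared in wells outside the ranking, above the 3 molecules taken as the limit of a count of 0. The 7 wells with high keratin RNA held 11 to 41 Lefty molecules, and the highest level among them was 6.69 per 10000 gene molecules, in A09, below the Lefty-high median of 11.2 but within the range of that group. The 2 wells over the spike-in limit reached 5.37, in H03, with 308 molecules. Well E02 had 1.84, below the lowest Lefty-high level (3.69) and above the highest Lefty-low level (1.61). What these wells hold was not tested.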

How the results depend on the processing

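The counts of 8 higher and 9 lower genes depended on the thresholds. With a pseudocount of 0.5 they were 1 and 2, and with 0.01, 14 were higher. A minimum mean level of 0.2 gave 34 and 25, one of 1 gave 1 and 2, and no minimum gave 60 and 42. A fold of 1.5 gave 78 and 44, and keeping the highest well gave 23 and 16. Thinning each well to 53000 gene molecules gave 13 higher genes. Splitting the ranking in the middle, with 19 wells a group, gave 3 and 3, of which 1 and 3 were among the main calls. The 9 highest against the 9 lowest wells gave 8 and 8, sharing 3 and 5. Ranking by Lefty2 alone gave 5 and 2, sharing 0 and 1, and ranking per spike-in molecule gave 4 lower genes. Wells of at least 80000 gene molecules gave 5 higher genes. The low-RNA wells gave 17 and 4, sharing 0 and 0. Without plate rows A and B, an alternative chosen after seeing the data, 12 and 10 genes passed, but only 1 and 3 of them were among the main calls: Chmp1a, and Tdh, Fblim1 and Zfp42. The cause was not tested in any of these.

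Among the named genes past the fold, signs turned for some genes and only under 2 of the 19 alternatives: the Lefty2 ranking and the low-RNA wells. Ranked by Lefty2 alone, log2 ratios were -0.019 for Junb, 0.78 for Mylpf, 0.088 for Spp1 and 0.10 for Zfp42. In the low-RNA wells they were -0.45 for Smchd1, -0.25 for D11Wsu99e, -0.086 for Tacc3, 0.23 for Dppa2, 0.19 for Spp1 and 1.44 for Tm7sf3. Trh, Tdh and Zfp42 passed the fold in 15 of 19 alternatives each, and Spp1 in 8. Scaled by the gene total without mitochondrially encoded genes and Rn45s, every named gene past the fold stayed past it. Zfp42 then had a log2 ratio of -1.42 and Tdh -1.60. The 19 included a minimum level of 0.2, no minimum and the limit of 50% unique molecules. Those settings could not change the call of a named gene, which met them already. The median of core pluripotency genes kept its sign in 18 of 19 (0.003 in the low-RNA wells), that of naive genes in 18 (0.10 by Lefty2 alone), and that of immediate early genes in 19. No paired analysis was possible because the library forms that share numbers are not split in the table and no test was run. Depth limits genes below about 1 per 10000, where a well holds some 10 molecules.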

Other observations

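The sum was also replaced by each of its 2 genes. Over the 39 wells the Spearman correlation with the sum was 0.93 for Lefty1 and 0.68 for Lefty2. Overlap of the Lefty1 ranking with the summed ranking was therefore largely set in advance. Lefty2 had 1 to 7 molecules in each Lefty-low well, so its ranking rests on few counts. Ranked by Lefty1 alone, 8 and 9 genes passed, of which 4 and 8 were among those of the summed ranking, and Tdh had a log2 ratio of -1.73 and Zfp42 -1.45. Ranked by Lefty2 alone, the same genes had -0.31 and 0.10. Of Lefty1 molecules 100% and of Lefty2 molecules 62.7% came from unique reads, and the difference between the rankings was not tested.

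Some single wells were unusual in other genes. B05, with the second highest Lefty sum, also had 419 Trh, 100 Egr1 and 76 Ctgf molecules, among 113874. D01, the well with the lowest Lefty sum, held 89 Fst and 374 Mt1 molecules among 97204. A05, the Lefty-high well with high Zfp42, had 249 Zfp42, 55 Tdh and 0 Junb molecules.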
